A study of Mus musculus with 12 samples.

Results

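The Schlafen genes of bone marrow-derived macrophages (BMMs) were followed over 6 conditions in mice that lacked or overexpressed miR-182 in myeloid cells. The family was chosen by a measured value, since Slfn4 had the largest rise in miR-182-deficient cells over WT cells after RANKL, and the other 6 genes joined it by their symbols. The 7 members were Slfn1, Slfn2, Slfn3, Slfn4, Slfn5, Slfn8 and Slfn9, which are 7 of the 24421 gene rows that each library held. The difference between genotypes after RANKL is therefore given below as values with no test, and so are the RANKL responses of Slfn4.

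RNA-seq was carried out on BMMs of mice for which the study names the C57BL/6 background. The cells were grown for 3 days with M-CSF, the growth factor of macrophages. They were then either left unstimulated (basal) or treated for 5 days with RANKL, the cytokine that turns macrophages into bone-resorbing osteoclasts. In the loss-of-function experiment, Mir182+/+LysMcre(+) cells (WT) and Mir182flox/floxLysMcre(+) cells (Mir182ΔM/ΔM) were each profiled basal and after RANKL. In the gain-of-function experiment, LysMcre(+) cells (Control) and LSL-Mir182LysMcre(+) cells (Mir182mTg) were profiled basal. Each of the 6 conditions had 2 libraries, 12 in all. Every group, the controls included, carried LysMcre, which drives Cre recombinase from the lysozyme M promoter, so that deletion and overexpression depend on Cre activity in myeloid cells. The age of the mice and the number pooled in a library were not given in the sources used here. The p-values below thus measure only the spread between these samples. That spread also holds a change of aligner and, in the labels, of polyA RNA (replicate 1) to total RNA (replicate 2). Where a replicate block is named below, the replicate number was added to the fit.

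Schlafen proteins are a family found in mammals whose genes lie side by side in the mouse, and many of them are induced by type I interferon. The short members Slfn1 and Slfn2 are known for holding lymphoid cells in quiescence, the intermediate members Slfn3 and Slfn4 for roles in T cells, gut epithelium and myeloid cells, and the long members Slfn5, Slfn8 and Slfn9 carry an additional helicase-like part. Type I interferon binds the receptor pair Ifnar1 and Ifnar2, which signals through the kinases Jak1 and Tyk2 to a complex that includes Stat2 and Irf9, and this complex binds interferon-stimulated response elements (ISREs) in the promoters of target genes.

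The family occupied 335378 bases of chromosome 11, from 82951349 to 83286726 (GRCm38). In order along the chromosome, the annotation places Slfn5 at 82951349 to 82964840 on the plus strand, Slfn9 at 82978390 to 82991830 and Slfn8 at 83002158 to 83020810 on the minus strand, and Slfn2 at 83065112 to 83070678, Slfn1 at 83116849 to 83122670, Slfn4 at 83175186 to 83190216 and Slfn3 at 83191330 to 83215154 on the plus strand. The pseudogene Slfn10-ps and the gene Slfn14 lie in the same stretch. Close copies can take each other's reads. Of all 50-base windows of the longest annotated transcript, 15.4% of those of Slfn8, 11.2% of Slfn9, 8.37% of Slfn4, 7.97% of Slfn3, 4.27% of Slfn2, 0.606% of Slfn1 and none of Slfn5 also occurred in another family gene. Small differences between Slfn8, Slfn9 and Slfn10-ps, and between Slfn3 and Slfn4, are uncertain to that extent.

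Promoter sequences from RefSeq (GRCm38.p6; 250 bases before to 50 after each start site) were matched for all 7 members and searched on both strands for the ISRE core GAAANNGAAA and for the gamma-interferon activated site TTCNNNGAA. Overlapping matches were counted. The ISRE core was found for 3 of 7 members, Slfn5, Slfn8 and Slfn9, which are the long ones, and in the promoters of 3.99% of 27025 genes. The second motif was found for 0 of 7 members and for 9.55% of genes. Stretches of 80 bases around the matches are shown because interferon-inducible genes changed in several of the comparisons that follow. Each is written 5′ to 3′ on the strand of its gene, and capitals mark the match, which stands in Slfn8 and Slfn9 as the reverse complement of the motif.
Slfn5: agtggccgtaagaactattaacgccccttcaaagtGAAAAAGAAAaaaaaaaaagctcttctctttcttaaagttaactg
Slfn8: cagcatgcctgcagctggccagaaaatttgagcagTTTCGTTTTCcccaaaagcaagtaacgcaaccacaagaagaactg
Slfn9: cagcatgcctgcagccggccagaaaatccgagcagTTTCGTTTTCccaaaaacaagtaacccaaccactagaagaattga

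The Slfn5 stretch is chr11:82951912-82951991, the Slfn8 stretch chr11:83020814-83020893 and the Slfn9 stretch chr11:82991831-82991910. Counted from the RefSeq start site, the match begins at -155 in Slfn5, at -45 in Slfn9, and at -48 or -136 in Slfn8, for which 2 start sites are listed. Up to the end of the match, 42 of 45 letters of the Slfn8 and Slfn9 stretches were the same. Slfn4, with the largest change of the family, held no exact match to either motif, and matches with a changed base were not searched for. Its 250 bases before the start site (chr11:83174936-83175185, plus strand) are shown for comparison.
Slfn4: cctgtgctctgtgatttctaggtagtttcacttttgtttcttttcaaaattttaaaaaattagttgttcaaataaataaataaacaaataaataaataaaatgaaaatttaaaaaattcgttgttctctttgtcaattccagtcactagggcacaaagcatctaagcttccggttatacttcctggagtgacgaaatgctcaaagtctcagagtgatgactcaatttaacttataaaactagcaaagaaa

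Because miR-182 is the factor that was deleted or raised, the 3′ untranslated regions of the members were searched for its seed match. The mature miR-182-5p is encoded on the minus strand of chromosome 6 (chr6:30165962-30165986, GRCm38.p6), and bases 2 to 8, the seed, are in capitals.
miR-182-5p: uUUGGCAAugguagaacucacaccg

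A match of 7 bases (TTGCCAA, the reverse complement of the seed, or TGCCAAA, the reverse complement of seed bases 2 to 7 followed by A) was found in the 3′ untranslated region of 1 of the 7 members, Slfn5, and in 20.9% of 21173 genes with an annotated 3′ untranslated region. The site in Slfn5 (chr11:82962349-82962355, plus strand, GRCm38) is shown in capitals within 30 bases.
Slfn5: accgtcaaagTGCCAAAgtgtgggtgcagt

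Sequencing depth was 24951280 to 33050619 reads on genes per library, so that 3 reads correspond to 0.0908 to 0.120 CPM (reads on a gene, scaled to 1000000 reads on all genes of the library). Levels are given as CPM, and as CPM per kilobase of transcript where genes are compared with each other. Mir182 primary transcript reads were 2.39 and 4.40 CPM in the Mir182mTg libraries and at most 0.0370 CPM in the other libraries, so that the deletion could not be checked from them. Macrophage markers (Csf1r, Cd68, Adgre1, Itgam, Fcgr1 and Mertk) summed to 5620.0 to 8475 CPM. T cell, B cell, dendritic and NK cell lists each summed to at most 3.67 CPM, and the 4 erythroid genes were at 0 in all 12 libraries. The neutrophil list, of which Ly6g was not among the rows, ranged from 7.19 to 117 CPM and the stromal list from 1.54 to 36.8 CPM.

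In the loss-of-function experiment, the WT RANKL libraries differed from the rest. Lyz2, the gene into which the Cre of LysMcre is inserted, was at 4117 and 4288 CPM in WT RANKL and at 5783 to 7062 CPM in the 4 gain-of-function libraries, but at 22.5 to 44.0 CPM in the WT basal, Mir182ΔM/ΔM basal and Mir182ΔM/ΔM RANKL libraries. Ifi202b, an interferon-inducible gene that differs between mouse strains, was at 1.12 and 0.972 CPM in WT RANKL, at most 0.0908 CPM in the gain-of-function libraries, and at 82.1 to 152 CPM in the other 6. In any comparison with the WT RANKL libraries, the effect of RANKL or genotype cannot be told apart from what set these libraries apart. The comparisons of the genotypes at baseline and of RANKL within Mir182ΔM/ΔM cells do not use their means.

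Levels per kilobase showed which members dominated. Slfn2 was the highest in all 6 conditions, at 92.0 to 311 CPM per kilobase as condition means, and Slfn5 was the next in all 6, at 17.2 to 139.5. The lowest was Slfn1 in every condition. Slfn4 was 6th of 7 in 5 conditions and 3rd in Mir182ΔM/ΔM cells after RANKL, where it reached 43.1 and 54.6 CPM per kilobase against 0.372 to 2.63 in the other 6 loss-of-function libraries. Slfn8 stood above Slfn9 in WT basal cells (14.0 and 12.7 against 11.1 and 9.34 CPM per kilobase) and below it in the other 5 conditions. Neighbours in these orders did not overlap between libraries, with the exception of Slfn3 and Slfn1 in Mir182ΔM/ΔM cells after RANKL (21.5 and 22.7 against 22.2 and 19.8 CPM per kilobase). Summed over the 7 members, the level was 191 CPM per kilobase in WT basal, 208 in WT RANKL, 264 in Mir182ΔM/ΔM basal, 592 in Mir182ΔM/ΔM RANKL, 143 in Control and 135 in Mir182mTg cells. Slfn4 made up 8.26% of that sum in Mir182ΔM/ΔM cells after RANKL and 0.186 to 0.961% of it elsewhere. In bulk RNA, more cells of a type and more RNA per cell cannot be told apart.

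**Figure D1:**
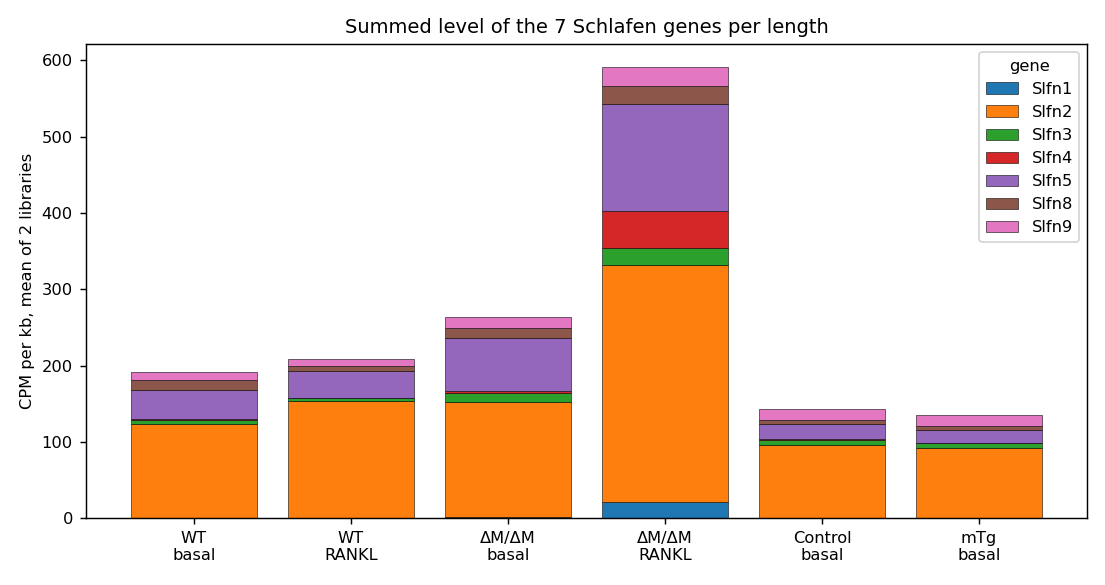
Mean CPM per kilobase of transcript (y axis, linear from 0) of the 7 Schlafen genes, stacked, in each condition (x axis, mean of 2 libraries; ΔM/ΔM, Mir182ΔM/ΔM; mTg, Mir182mTg). Slfn2 and Slfn5 fill most of every bar, the sum reaches 592 in Mir182ΔM/ΔM cells after RANKL, and Slfn4 is a visible layer only there.

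Unstimulated Mir182ΔM/ΔM and WT cells were compared first, since this contrast did not enter the choice of the family. WT basal libraries stood apart at AA465934, a non-coding gene next to the family, as given below. In this contrast the deletion cannot be told apart from anything else that set the WT basal libraries apart. At baseline, 5 of the 7 Schlafen genes were higher in Mir182ΔM/ΔM than in WT cells, with the largest relative changes in Slfn4 and Slfn1, which were also the members of lowest level, and none was lower. Of all 11691 genes tested, 2.71% were higher and 1.1% lower (limma on log2(CPM + 1), Benjamini-Hochberg adjusted p below 0.05).

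Among the short members, Slfn1 was at 1.35 and 1.28 CPM in WT and at 3.74 and 3.62 CPM in Mir182ΔM/ΔM basal cells, a 2.80-fold difference (log2 difference 1.02, SE 0.10, limma adjusted p = 0.0034). Slfn2, required for the quiescence of T cells and monocytes, was at 202 and 207 CPM in WT and at 249 and 253 CPM in Mir182ΔM/ΔM cells. Both deficient libraries were above both WT libraries in each of these genes. For Slfn2 the log2 difference of 0.29 (SE 0.07) did not pass the test (limma adjusted p = 0.068), but passed it with the replicate number as a block (limma adjusted p = 5.2e-07).

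The intermediate members were both higher in Mir182ΔM/ΔM cells. Slfn3 was at 8.81 and 10.5 CPM in WT and at 20.7 and 19.9 CPM in Mir182ΔM/ΔM cells (log2 difference 1.0004, SE 0.10, limma adjusted p = 0.0035). Slfn4, which is induced in macrophages by interferon and by microbial products, was at 3.06 and 3.61 CPM in WT and at 9.69 and 10.4 CPM in Mir182ΔM/ΔM cells, a 3.02-fold difference (log2 difference 1.35, SE 0.13, limma adjusted p = 0.0032). Neither gene overlapped between the genotypes.

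The 3 long members differed from each other. Slfn5 was at 246 and 206 CPM in WT and at 439.8 and 394 CPM in Mir182ΔM/ΔM cells (log2 difference 0.88, SE 0.11, limma adjusted p = 0.0095). Slfn9 was at 42.9 and 36.0 CPM in WT and at 58.5 and 58.7 CPM in Mir182ΔM/ΔM cells (log2 difference 0.56, SE 0.10, limma adjusted p = 0.030). Slfn8 was at 56.3 and 50.9 CPM in WT and at 52.7 and 47.7 CPM in Mir182ΔM/ΔM cells, so that the genotypes overlapped (log2 difference -0.09, SE 0.08, limma adjusted p = 0.70). Slfn5 and Slfn9 were thus higher in both deficient libraries, and Slfn8 was not.

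The count of 5 fell to 3 when Mir182ΔM/ΔM basal replicate 1 or WT basal replicate 2 was left out, as Slfn5 and Slfn9 no longer passed (limma adjusted p = 0.085 and 0.18 without the former, 0.059 and 0.15 without the latter). Slfn9 also lost its call when any of Mir182ΔM/ΔM basal replicate 2 or the Mir182ΔM/ΔM RANKL libraries was left out, and with a fit of the 4 basal libraries alone (limma adjusted p = 0.11). Without a basal library, 1 RNA type is set against both, so the difference in RNA type enters that fit. With the replicate block, 6 of the 7 members were higher, Slfn5 and Slfn9 included, and none was lower. Of all genes, 18.6% were higher and 12.7% lower in that fit. The neutrophil list summed to 100.04 and 90.9 CPM in WT and to 115 and 109 CPM in Mir182ΔM/ΔM basal cells, with 0 of 7 genes called (2 higher with the block), and 1 of 6 macrophage markers, Fcgr1, was higher and 1, Csf1r, lower. Their part in the result was not tested.

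**Figure D2:**
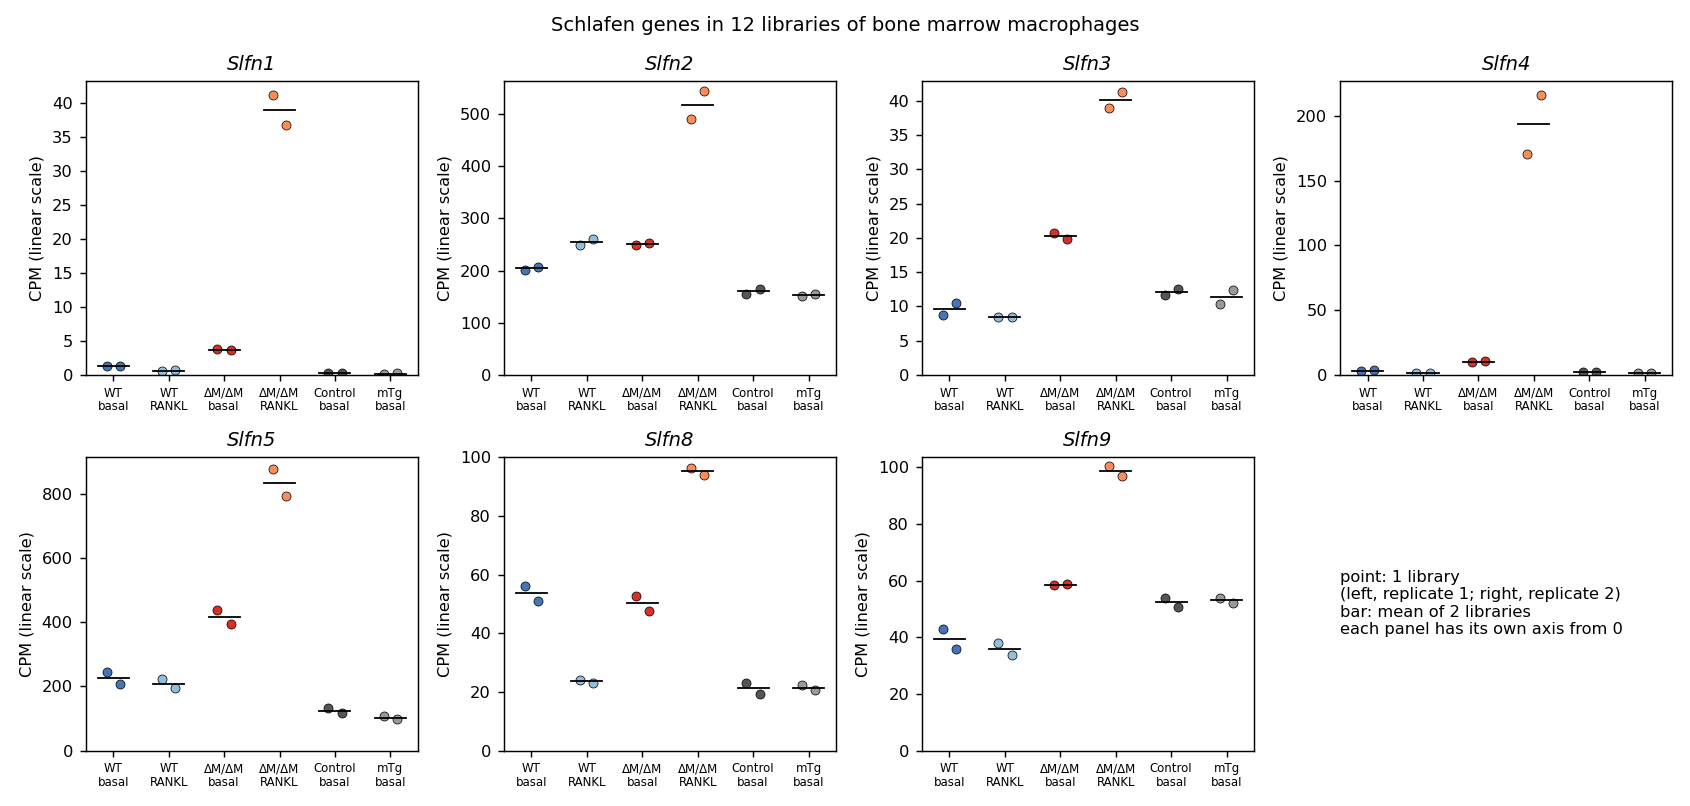
CPM of each Schlafen gene (y axes, linear, each from 0) in the 6 conditions (x axes), with points for the 2 libraries and bars for their mean. Both Mir182ΔM/ΔM RANKL points lie above all other points in every panel, and the Mir182ΔM/ΔM basal points lie above the WT basal points in all panels but that of Slfn8.

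In Mir182ΔM/ΔM cells, the response of the family to RANKL was examined next. The 6 members tested were all higher after RANKL than at baseline, against 30.4% of all genes higher and 26.4% lower, and both RANKL libraries lay above both basal libraries for each of them. The Mir182ΔM/ΔM RANKL libraries also entered the choice of the family, through Slfn4, and Slfn1 followed Slfn4 closely over the libraries (r = 0.992). These tests are therefore not independent of the choice, and nothing is read from the count of 6. Slfn4 itself went from 9.69 and 10.4 CPM to 171 and 216 CPM, which is 19.3-fold between the means.

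Of the short members, Slfn1 rose from 3.74 and 3.62 CPM to 41.2 and 36.8 CPM, 10.6-fold (log2 difference 3.09, SE 0.10, limma adjusted p = 8e-07). Slfn2 rose from 249 and 253 CPM to 491 and 544 CPM, 2.06-fold (log2 difference 1.04, SE 0.07, limma adjusted p = 1.6e-05). Slfn1 thus moved with Slfn4 and far more than the other members in relative terms, while Slfn2 gained more CPM.

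The remaining 4 genes rose by similar factors. Slfn3 rose from 20.7 and 19.9 CPM to 39.0 and 41.2 CPM (log2 difference 0.95, SE 0.10, limma adjusted p = 0.00019), and Slfn5 from 439.8 and 394 CPM to 877 and 794 CPM (log2 difference 1.0011, SE 0.11, limma adjusted p = 0.00028). Slfn8 rose from 52.7 and 47.7 CPM to 96.4 and 94.0 CPM (log2 difference 0.91, SE 0.08, limma adjusted p = 8.3e-05), and Slfn9 from 58.5 and 58.7 CPM to 100.4 and 97.0 CPM (log2 difference 0.74, SE 0.10, limma adjusted p = 0.00065). Fold changes of these 4 between the means were 1.69 to 2.003. Beside these values, the neutrophil list fell from 115 and 109 CPM to 7.19 and 7.36 CPM, with 7 of 7 genes tested lower. Of the 6 macrophage markers 3 were lower (5 with the replicate block), and of the 5 stromal genes 2, Dcn and Cxcl12, were higher (5 with the block), the stromal sum going from 3.89 and 22.3 to 19.9 and 36.8 CPM. With the block, 4997 of all 11691 genes were higher and 4239 lower. The part of the neutrophil, macrophage and stromal lists in the result was not tested.

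**Figure D3:**
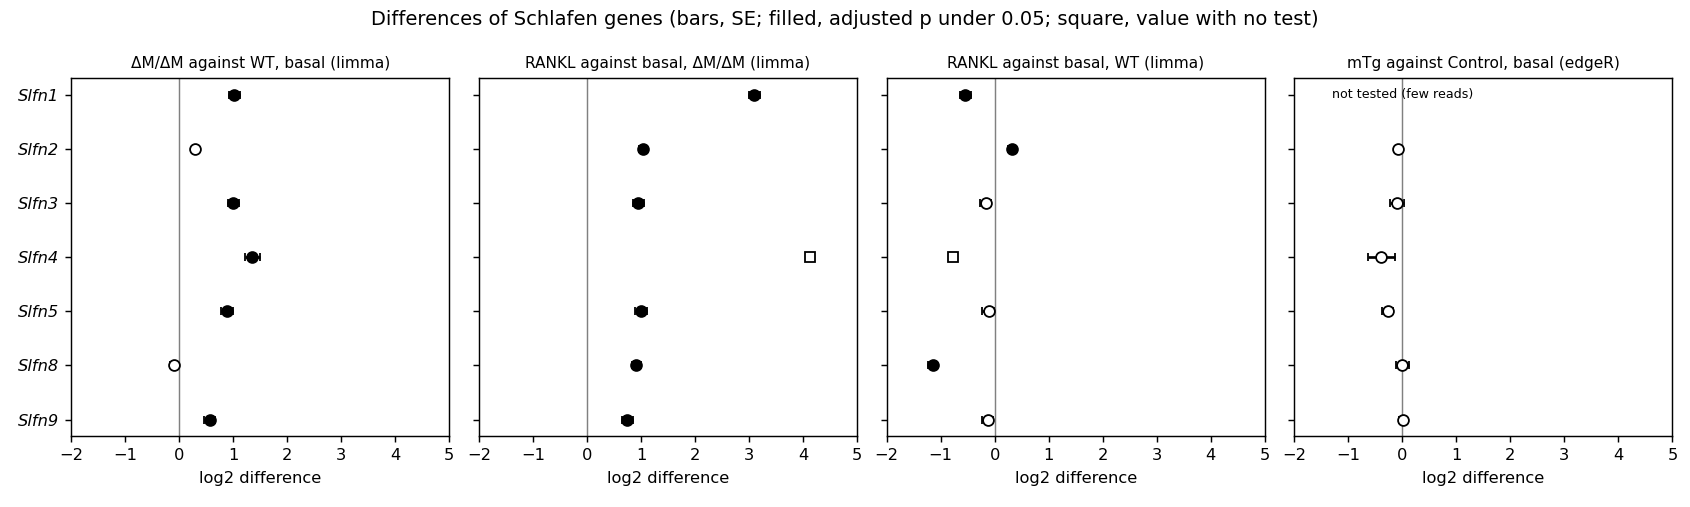
Log2 differences (x axes) of the 7 Schlafen genes (y axis) in 4 comparisons, on log2(CPM + 1) for the 3 limma panels and on edgeR's scale for the last. Bars give the SE, filled points passed an adjusted p of 0.05, and squares are Slfn4 values with no test. All points of the second panel lie right of 0, up to 4.13 for Slfn4, while those of the third lie between -1.15 and 0.31.

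In WT cells the same treatment gave a mixed picture, and these values rest on the WT RANKL libraries described above. Of the 6 members tested, 1 was higher after RANKL and 2 were lower, against 40.6% of all genes higher and 22.0% lower. Slfn8 was at 56.3 and 50.9 CPM at baseline and at 24.1 and 23.1 CPM after RANKL, 2.27-fold lower (log2 difference -1.15, SE 0.08, limma adjusted p = 2.2e-05). Slfn1 was at 1.35 and 1.28 CPM and then at 0.519 and 0.648 CPM, 2.25-fold lower (log2 difference -0.55, SE 0.10, limma adjusted p = 0.0025). Taken on log2(CPM + 1), the difference of a gene this low is understated. Slfn2 was at 202 and 207 CPM and then at 249 and 259.7 CPM (log2 difference 0.31, SE 0.07, limma adjusted p = 0.0054). Slfn4 was at 3.06 and 3.61 CPM and then at 1.60 and 1.48 CPM, 2.17-fold lower, with no test. Beside these values, 7 of 7 neutrophil genes were lower (sums of 100.04 and 90.9 CPM, then 22.2 and 21.9 CPM), as were 6 of 6 macrophage markers (8475 and 8250 CPM, then 5690 and 5620 CPM), while 0 of 5 stromal genes were called (4 higher with the replicate block). Their part in the result was not tested.

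The other 3 members did not pass the test. Slfn3 was at 8.81 and 10.5 CPM at baseline and at 8.46 and 8.49 CPM after RANKL, Slfn5 at 246 and 206 and then 223 and 194 CPM, and Slfn9 at 42.9 and 36.0 and then 38.1 and 33.7 CPM (log2 differences -0.17, -0.11 and -0.13, limma adjusted p = 0.19, 0.42 and 0.30). The Slfn5 and Slfn9 libraries overlapped. These calls changed with the scaling. The median of all genes in this contrast was at a log2 difference of 0.19. When CPM were divided by TMM factors, which brought that median to -0.0044, 0 members were higher and 5 of 6 lower, against 28.8% of all genes higher and 30.5% lower. The Slfn2 difference was then 0.11 (limma adjusted p = 0.21). With the replicate block and no TMM factors, Slfn5 and Slfn9 also passed as lower, so that 1 member was higher and 4 were lower, against 52.8% of all genes higher and 29.0% lower.

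Outside Mir182ΔM/ΔM RANKL cells, Slfn8 levels divided as Lyz2 and Ifi202b did. At 24.1 and 23.1 CPM in WT RANKL cells it was near its levels of 23.2 and 19.4 CPM in Control and of 22.2 and 20.6 CPM in Mir182mTg basal cells, whereas WT basal and Mir182ΔM/ΔM basal cells held 47.7 to 56.3 CPM. Slfn8 thus had 2 levels among unstimulated libraries, the lower of them in those in which Lyz2 was high and Ifi202b near 0. Slfn1 and Slfn4 divided the same way outside Mir182ΔM/ΔM RANKL cells, with 0.151 to 0.648 and 1.27 to 2.08 CPM in the WT RANKL, Control and Mir182mTg libraries against 1.28 to 3.74 and 3.06 to 10.4 CPM in the WT and Mir182ΔM/ΔM basal libraries. In WT RANKL cells Slfn1, Slfn2 and Slfn5 lay above both Control libraries, and Slfn3, Slfn4 and Slfn9 below both.

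**Figure D4:**
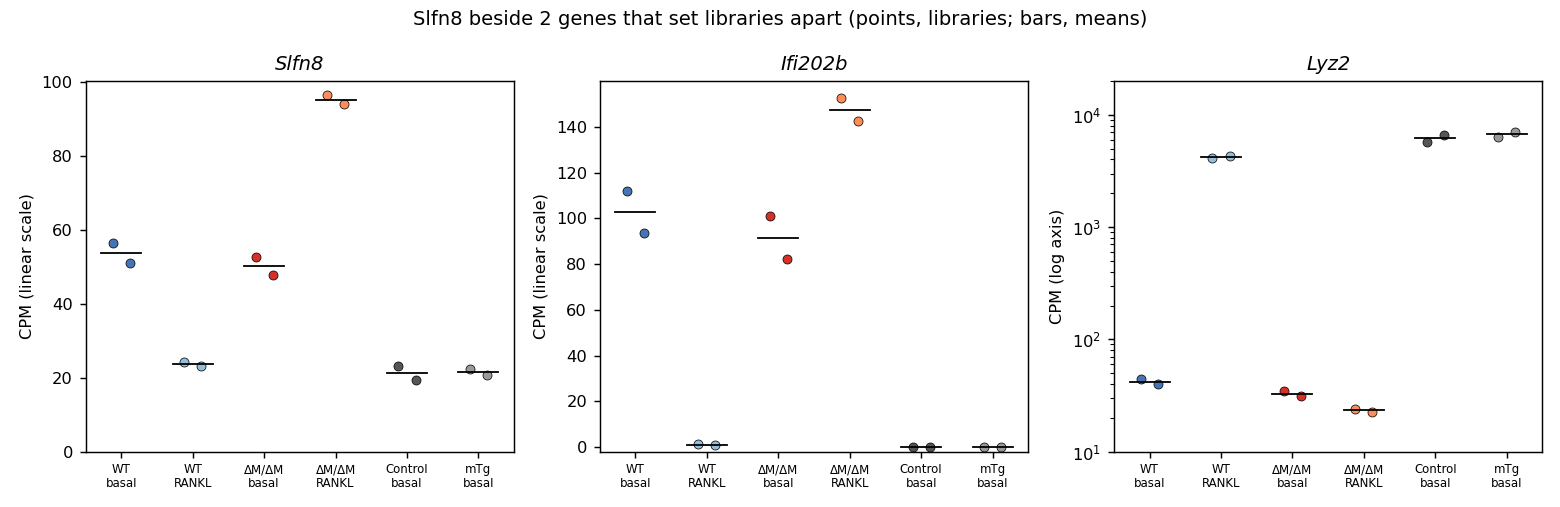
CPM of Slfn8 and Ifi202b (linear axes) and of Lyz2 (log axis) in the 6 conditions (x axes), with points for libraries and bars for means of 2. WT RANKL, Control and Mir182mTg libraries share Slfn8 values of 19.4 to 24.1 CPM, Ifi202b values of at most 1.12 CPM and Lyz2 values of at least 4117 CPM.

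The difference between the genotypes after RANKL, on which Slfn4 was picked, is described without a test. Slfn4 was at 1.60 and 1.48 CPM in WT and at 171 and 216 CPM in Mir182ΔM/ΔM cells, a 126-fold difference between means (log2 difference 6.25). Slfn1 was at 0.519 and 0.648 CPM against 41.2 and 36.8 CPM (log2 difference 4.66). Per kilobase, these 2 genes were the lowest members in WT cells. In Mir182ΔM/ΔM cells Slfn4 reached a mean of 48.9 CPM per kilobase, while Slfn1, at a mean of 21.0, remained the lowest.

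The other members also lay higher in both Mir182ΔM/ΔM libraries, with log2 differences of 2.12 for Slfn3, 1.996 for Slfn5, 1.97 for Slfn8, 1.44 for Slfn9 and 1.02 for Slfn2. Of all genes, 23.0% had both Mir182ΔM/ΔM RANKL libraries above both WT RANKL libraries, and nothing is read from the 7 of 7 members, since the rule used this contrast. The median over the 7 members was 1.996 where that of all genes tested was -0.14. The osteoclast genes (Acp5, Ctsk, Mmp9, Nfatc1, Dcstamp, Ocstamp, Calcr, Atp6v0d2, Oscar and Itgb3) summed to 10643 and 10857 CPM in WT and to 3285 and 3253 CPM in Mir182ΔM/ΔM cells after RANKL, of which Mmp9, Acp5 and Ctsk made up most. Both Mir182ΔM/ΔM libraries were lower for 8 of the 10, higher for Itgb3 (58.1 and 59.8 against 83.7 and 82.6 CPM), and overlapped WT for Calcr (9.78 and 8.997 against 9.07 and 9.68 CPM). Of all 11691 genes tested, 1668 were called higher and 3607 lower in this contrast (limma), which is a measure other than overlap. The part of the osteoclast genes in the Schlafen levels was not tested.

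**Figure D5:**
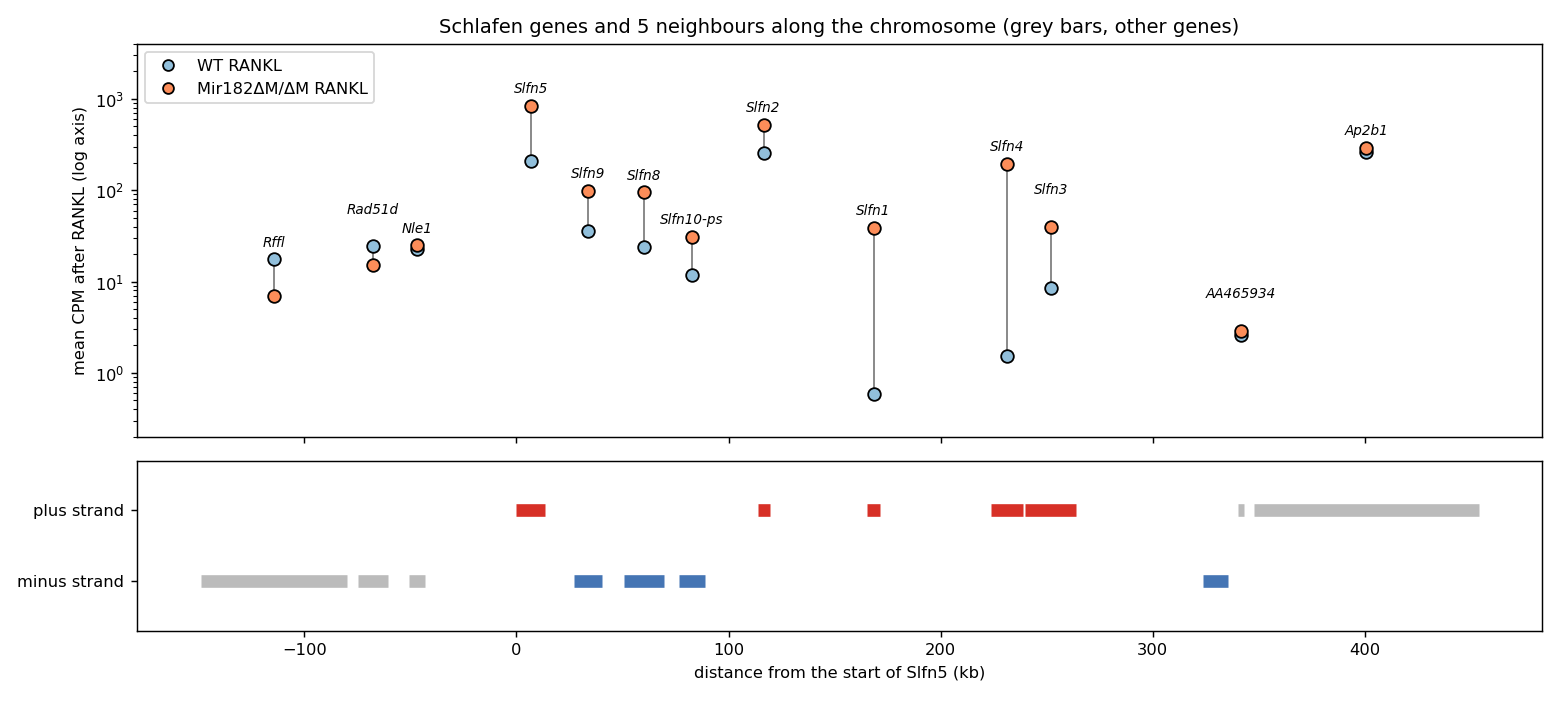
Mean CPM after RANKL (upper panel, log axis, 2 libraries each) of the Schlafen genes and of 5 of their neighbours, at their position along the chromosome (x axis, distance in kb from the start of Slfn5). The lower panel shows each gene on its strand, with Schlafen genes in colour and others in grey. All Schlafen genes are higher in Mir182ΔM/ΔM than in WT RANKL cells, whereas the means of Nle1 and AA465934 lie close together, Ap2b1 is slightly higher, and Rffl and Rad51d are lower.

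The genes beside the family were counted in the same way. Of the 5 listed genes on each side of the family, 6 of 10 passed the filter on low values. With RANKL in Mir182ΔM/ΔM cells, 1 of the 6 was higher, Nle1 (log2 difference 1.41, limma adjusted p = 8.6e-05), and 1 was lower, Rffl (log2 difference -1.27, limma adjusted p = 1.9e-05). Of all genes, 30.4% were higher and 26.4% lower in this contrast. With the replicate block, 2 of the 6 were higher (Nle1 and AA465934) and 3 lower (Rffl, Rad51d and Ap2b1). Of all 11691 genes, 4997 were higher and 4239 lower in that fit. Ap2b1, an adaptor subunit of clathrin coats, was at 258 and 265 CPM in WT and at 288 and 298 CPM in Mir182ΔM/ΔM cells after RANKL. At baseline the non-coding AA465934, which lies beyond Slfn14, was at 0.153 and 0.240 CPM in WT and at 1.998 and 2.05 CPM in Mir182ΔM/ΔM cells (log2 difference 1.34, limma adjusted p = 0.0034), and at 1.998 to 3.19 CPM in all 10 libraries other than WT basal. WT basal libraries thus stood apart at this gene next to the family, and its relation to the basal differences of the Schlafen genes was not tested.

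Of the other family genes in the files, 1 was expressed above the filter on low values. The pseudogene Slfn10-ps was at 19.3 and 18.4 CPM in WT basal, 13.5 and 9.90 in WT RANKL, 24.5 and 26.5 in Mir182ΔM/ΔM basal and 30.4 and 31.0 CPM in Mir182ΔM/ΔM RANKL cells, of which the fall in WT cells passed the test (log2 difference -0.65, limma adjusted p = 0.0045). The differences for RANKL in Mir182ΔM/ΔM cells (0.26, limma adjusted p = 0.15) and between the genotypes at baseline (0.42, limma adjusted p = 0.18) did not pass, and both passed as higher with the replicate block. Its close relation to Slfn8 and Slfn9 in sequence makes these values uncertain. Slfn14, Slfnl1 and the antisense Slfn5os each stayed at or below 0.04 CPM. Slfn5os overlaps Slfn5 on the other strand, and since the libraries did not mark strand, reads of the 2 genes cannot be told apart where they overlap.

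Overexpression of miR-182 was examined in basal cells alone. Of the 6 members with enough reads, none was called at an adjusted p below 0.05 (edgeR quasi-likelihood test, of 12081 genes 0.0993% higher and 0.157% lower), and 1 had an unadjusted p below 0.05. DESeq2 also called 0 of them. The gene with the low unadjusted p was Slfn5, at 131 and 116 CPM in Control and at 107 and 98.7 CPM in Mir182mTg cells (log2 difference -0.28, SE 0.09, edgeR adjusted p = 0.59). Both transgenic libraries were below both Control libraries. With the replicate block, Slfn5 was the 1 member that passed (log2 difference -0.28, SE 0.04, edgeR adjusted p = 4.8e-05), against 6.94% of genes higher and 8.15% lower in that fit.

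Of the others, Slfn4 was at 2.08 and 1.93 CPM in Control and at 1.27 and 1.83 CPM in Mir182mTg cells (log2 difference -0.39, SE 0.25, edgeR adjusted p = 0.99). Slfn2 was at 155 and 164 against 151 and 155 CPM, Slfn3 at 11.7 and 12.5 against 10.3 and 12.4 CPM, Slfn8 at 23.2 and 19.4 against 22.2 and 20.6 CPM, and Slfn9 at 53.9 and 50.7 against 53.9 and 52.2 CPM. The libraries of Slfn3, Slfn8 and Slfn9 overlapped. Slfn1 had 8 and 6 reads in Control and 5 and 6 reads in Mir182mTg libraries, too few for the test. The neutrophil list was at 50.7 and 49.5 CPM in Control and at 117 and 107 CPM in Mir182mTg cells, and its part in these values was not tested.

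The remaining genes of the interferon pathway were counted from lists of known members. At baseline, 21 of 24 other interferon-inducible genes were higher in Mir182ΔM/ΔM than in WT cells and 1 was lower, with a median log2 difference of 1.21 against 0.01 over all genes. The exception was Ifi44, at 66.4 and 62.9 CPM in WT and at 12.7 and 11.4 CPM in Mir182ΔM/ΔM cells (log2 difference -2.33, limma adjusted p = 5.3e-05). Stat2 was also higher (183 and 177 CPM in WT against 292 and 286 CPM in Mir182ΔM/ΔM cells, log2 difference 0.68, limma adjusted p = 0.0017), and with the replicate block the receptor genes Ifnar1 and Ifnar2 were lower. Of 6 interferon regulatory factors, Irf7, which amplifies interferon production, was higher (57.9 and 57.4 CPM against 147 and 156 CPM) and none was lower. The median of the 7 Schlafen genes was 0.88.

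After RANKL in Mir182ΔM/ΔM cells, 24 of the 24 interferon-inducible genes were higher than at baseline (median log2 difference 1.37, 0.05 over all genes). Irf7 reached 1297 and 1355 CPM and Stat2 370 and 358 CPM. Of the regulatory factors 3 were higher and 1, Irf8, lower. In WT cells 3 of the 24 were higher after RANKL and 16 lower (median -0.57, 0.19 over all genes), and in Mir182mTg against Control cells 0 were higher and 1, Zbp1, was lower (edgeR), or 18 with the replicate block. The interferon ligands were near the floor. Ifnb1 was at 0.0985 and 0.197 CPM in Mir182ΔM/ΔM RANKL and at 0.0370 and 0.0746 CPM in Mir182ΔM/ΔM basal libraries and at most 0.0378 CPM elsewhere, and the 6 other ligands were at 0 in all libraries.

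Likeness to other genes was measured by Pearson's r on log2(CPM + 1) over the 12 libraries, as a description, among 10283 genes with a condition mean of at least 5 CPM. The points share libraries and fall into few levels, so that high values are common. The 5 genes most like Slfn4 were Ms4a4c (r = 0.989), Daxx (0.987), Igtp (0.987), Irf7 (0.984) and Oas3 (0.984). Those most like Slfn1 were Ms4a4c (0.996), Gbp2 (0.996) and Irf7 (0.994), and those most like Slfn5 were Ifit1 (0.995), Dtx3l (0.991) and Oas2 (0.988). For Slfn2 they were Gbp5 (0.992), Tmcc3 (0.992) and Trex1 (0.989), for Slfn3 Lpl (0.970), Oas3 (0.970) and Mtmr10 (0.965), for Slfn8 Il18bp (0.991), Lgals8 (0.981) and Ifi203 (0.977), and for Slfn9 Tpst1 (0.979), Ascc3 (0.973) and Pdlim5 (0.966).

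Within the family, r ranged from 0.624 to 0.992 over the 21 pairs. The pair most alike was Slfn1 and Slfn4 (0.992), and the pair least alike was Slfn8 and Slfn9 (0.624), which lie next to each other. Slfn8 and Slfn9 parted in several comparisons, and the part of each in the lower r was not tested. With RANKL in WT cells the fold changes between means were 0.441 for Slfn8 and 0.911 for Slfn9. Between Mir182ΔM/ΔM and WT cells at baseline they were 0.936 and 1.48. Slfn8 was lower in the Control libraries (23.2 and 19.4 CPM) than in the WT basal libraries (56.3 and 50.9 CPM), whereas Slfn9 was higher (53.9 and 50.7 against 42.9 and 36.0 CPM). These libraries belong to separate experiments and are set side by side without a test.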

How the data were processed

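The authors made TruSeq libraries. Alignment to mm10 used TopHat (replicate 1) or HISAT2 (replicate 2), and reads per gene came from HTSeq. The authors deposited CPM values (loss of function, with RPKM for replicate 1) or raw counts (gain of function, with RPKM for replicate 1). Tool names are from the submitters' processing notes and the study's methods. The kit did not mark strand. Labels give polyA RNA for replicate 1 and total RNA for replicate 2. All CPM values were whole reads (100% within 0.01 read). Counts were scaled to 1000000 per library. Length was CPM over RPKM. Genes with at least 1 CPM in 2 of 8 libraries were tested with limma 3.58.1 (trend) on log2(CPM + 1), which understates changes of low genes, with the 4 groups in 1 fit. Counts were tested with edgeR 4.0.16 (filterByExpr, TMM). Both were also run on simulated counts without a replicate effect, a setting unlike these libraries, so nothing is read from that run. Called means an adjusted p under 0.05 with no fold minimum. Replicate numbers pair libraries: deviations from group means correlated at 0.690 to 0.758 in all 15 pairs of conditions, and the labels tie the number to the RNA type. Alternatives included other filters, pseudocounts, scaling, DESeq2 1.42.0, the replicate block and leaving out each library. In 27 rows the gene name had become a date, and they were left out of the likeness ranking. The members and lists were chosen with earlier results of these data known. The results of some listed genes are not reported here. Named genes were the members, other family genes, fixed lists, 5 genes to each side, and the genes most like each member.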

Additional observations from a re-analysis of the deposited data

Results flagged for a closer look

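In 4 of the 7 members, both RANKL libraries lay above both basal libraries in Mir182ΔM/ΔM cells and below both in WT cells, which is why they are listed here. The difference between the genotypes was not tested. Of all genes, 30.4% were called higher with RANKL in Mir182ΔM/ΔM cells and 22.0% lower in WT cells. The share of all genes with both was not counted, so nothing is read from the number of members here. In Mir182ΔM/ΔM and then in WT cells, the log2 differences were 3.09 and -0.55 for Slfn1 and 0.95 and -0.17 for Slfn3. They were 4.13 and -0.77 for Slfn4, and 0.91 and -1.15 for Slfn8. On log2(CPM + 1) the falls of Slfn1 and Slfn4 in WT cells are understated. Between means they were 2.25-fold and 2.17-fold, against 2.27-fold for Slfn8. The WT values rest on the WT RANKL libraries, in which Lyz2 and Ifi202b had the levels of the other experiment, and the Slfn3 difference in WT cells did not pass its own test. Compared by replicate number, Slfn5 and Slfn9 also went up in both Mir182ΔM/ΔM pairs and down in both WT pairs (WT folds of 0.907 and 0.943 for Slfn5, 0.889 and 0.936 for Slfn9), but their WT libraries overlapped.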

How the results depend on the processing

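The count of 3 of 6 members called with RANKL in WT cells became 5 with TMM-divided CPM and 5 with edgeR on the recovered reads. It became 5 with the replicate block and 6 with the block and TMM factors together, an alternative chosen after seeing the data. Of 11691 genes, 3356 were higher and 3561 lower with edgeR. With the block and TMM factors, 4629 were higher and 4714 lower, so nothing is read from the count of 6. The count for RANKL in Mir182ΔM/ΔM cells was 6 under the alternatives run, with the exception of a filter of 1 CPM in all 8 libraries, which left out Slfn1 and called 5 of 5. The basal genotype count of 5 ranged from 3 to 5 when single libraries were left out. For Mir182mTg against Control cells the count of 0 became 1 with the replicate block, and DESeq2 and limma called 0. The median difference after RANKL, 1.996, was 1.81 with a pseudocount of 5, 2.15 with TMM-divided CPM, 2.16 with edgeR, 2.15 with the block and TMM factors, and 1.94 to 2.10 without single libraries. Differences whose sign turned were small. Slfn8 in Mir182mTg cells was at 0.0012 without a filter, 0.0165 with upper quartile scaling and 0.0127 with limma, and -0.12 to 0.13 without single libraries. Without single libraries, Slfn3 was at -0.24 to 0.0147 and Slfn9 at -0.0264 to 0.0526 in the same contrast, and Slfn5 with RANKL in WT cells at -0.24 to 0.0148. The cause of these changes was not tested. Beyond the calls given here and in the report, the replicate block changed no call among the members. With 2 libraries a condition, and few reads for Slfn1 and Slfn4 in WT, Control and Mir182mTg cells, small changes of these genes were not detectable.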
